A study of Mus musculus with 19 samples.

Results

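The mRNA levels were examined of 9 genes of cytokine signalling, the STAT transcription factors *Stat2*, *Stat3*, *Stat4*, *Stat5a*, *Stat5b* and *Stat6*, and *Pim1*, *Bcl3* and *Bcl6*, which are known targets of STAT proteins. They were taken by symbol from the 60567 genes of the data, and each of the 9 symbols was found. RNAseq was performed on hippocampal cells that were isolated by FACS from male mice aged 9 months, WT or carrying the APP/PS1dE9 transgenes that cause amyloid plaques. All mice had received in the CA1 region an adeno-associated vector (AAV) that encodes GFP under an astrocyte promoter. GFP+ astrocytes were collected from WT mice given this vector alone (WT-GFP, n = 7), from APP mice given it alone (APP-GFP, n = 4) and from APP mice that also received an AAV encoding SOCS3 at the same total viral load (APP-SOCS3, n = 5). GFP- cells of WT-GFP mice (n = 3) contain microglia, neurons, oligodendrocyte precursor cells and astrocytes that the vector did not reach. Endothelial and mural cell markers were also high in them, such as *Cldn5* (mean normalized level 40942, against 4401 in WT-GFP astrocytes). Among astrocytes, only infected ones are GFP+, and GFP+ samples also held RNA of marker genes of other cells, as given below. Both hippocampi of a mouse were sorted separately, so samples may share a mouse. The *p* values would then be too small where samples of the same group share a mouse. Sharing between GFP+ and GFP- samples of WT-GFP mice can act the other way, and was not modelled.

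When a cytokine binds its receptor, Janus kinases phosphorylate STAT proteins, which pair, enter the nucleus and bind DNA. STAT3 is activated by the interleukin-6 family, STAT6 by interleukin-4 and interleukin-13, STAT4 by interleukin-12, STAT2 by type I interferons, and STAT5A and STAT5B by growth hormone and other cytokines. SOCS3 is induced by STAT3 and blocks Janus kinases, which closes a feedback loop, and STAT3 is known as a regulator of reactive astrocytes.

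Reads counted on genes ranged from 19331876 to 32621917 per sample. Of the 16 samples of GFP+ astrocytes, 4 stood apart with 15575 to 19198 genes detected, against 21602 to 26757 in the other 12. These were replicates 1, 2 and 3 of WT-GFP and replicate 2 of APP-GFP. In replicate 3 of WT-GFP, 6 of the 9 genes had at most 3 reads. Results are therefore also given without these 4 samples, a choice made after seeing the data. The summed level of 15 astrocyte markers was 1276 to 2254% of its mean in GFP- cells. *Socs3* was 19463 ± 10281 (SD, n = 5) in APP-SOCS3 and 1079 ± 493 (SD, n = 4) in APP-GFP astrocytes, in which reads of the vector and of the gene cannot be told apart.

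*Stat3* was the STAT gene with the highest mRNA level in astrocytes. Normalized mRNA levels (reads divided by a size factor for each sample) were divided by the length of all exons in kb to compare genes. Reads were counted on constitutive regions only, whose lengths were not available, so the order and shares below depend on this choice. Per kb, *Stat3* had 267 ± 77.7 (SD, n = 7) in WT-GFP astrocytes and was the highest of the 9 genes in 7 of 7 samples. It was also highest in 4 of 4 APP-GFP and in 4 of 5 APP-SOCS3 samples, with *Bcl6* first in the other sample.

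Below *Stat3*, the levels per kb of WT-GFP astrocytes were 92.2 ± 28.2 for *Stat6*, 77.5 ± 43.1 for *Bcl6*, 70.4 ± 46.8 for *Stat5b* and 53.4 ± 42.4 for *Stat2* (SD, n = 7). *Bcl3*, *Pim1*, *Stat5a* and *Stat4* followed with means of 21.7, 9.25, 8.62 and 0.501 per kb. In this order, *Stat3* exceeded *Stat6* in 7 of 7 samples (exact 2-sided sign-flip test of log2 levels, p = 0.0156, the smallest that 7 samples allow, adjusted p = 0.0625 over 8 neighbouring pairs). *Bcl3* exceeded *Pim1* in 5 of 7 samples, and both had 0 reads in the other 2. The p of 0.0156 of this pair in the same exact test came from adding 1 before division by length, which separates genes at 0, and was 0.0625 with 1 added after division, a choice made after seeing the data. With 1 added after division, *Stat5a* exceeded *Stat4* in 6 of 7 samples (exact p = 0.0312, adjusted p = 0.125). The other 5 pairs of neighbours were not separated beyond the spread between samples, and no pair had an adjusted p under 0.05 in either exact test. With the longest transcript in place of all exons, *Bcl6* moved above *Stat6*.

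The make-up of the STAT mRNA differed by sample type. Of the summed STAT level per kb, *Stat3* made up 38.5 to 76.7% in WT-GFP astrocytes, 43.9 to 64.6% with APP and 37.2 to 51.9% with APP and SOCS3. In GFP- cells its share was 26.6 to 30.7%, and *Stat6* was first with 42.9 to 46.6% and the highest of the 9 genes in 3 of 3 samples. *Stat6* had 8.42 to 38.2% in WT-GFP astrocytes, 3.07 to 25.2% with APP and 2.53 to 6.51% with APP and SOCS3.

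**Figure D1:**
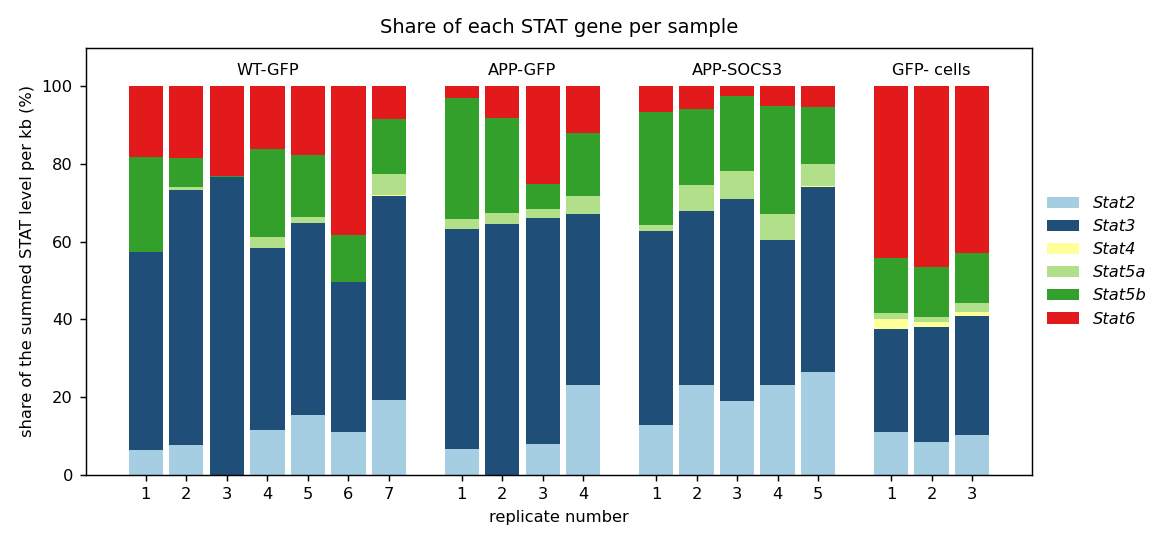
Share of each STAT gene in the summed STAT level per kb (vertical axis, %) in each of the 19 samples (horizontal axis, replicate number within its group). *Stat3* takes 37.2 to 76.7% in GFP+ astrocytes, and *Stat6* takes 42.9 to 46.6% in GFP- cells.

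The genes lie on several chromosomes. On chromosome 11 of mm10, *Stat5b* (100780731-100850727, minus strand), *Stat5a* (100859351-100885168, plus strand) and *Stat3* (100886806-100939540, minus strand) follow each other. *Stat6* (127642985-127660987) and *Stat2* (128270555-128292849) are on the plus strand of chromosome 10, and *Stat4* (51987147-52107188) is on the plus strand of chromosome 1. *Pim1* lies on chromosome 17 (29490792-29496108, plus strand), *Bcl3* on chromosome 7 (19808462-19822755, minus strand) and *Bcl6* on chromosome 16 (23965051-23988637, minus strand). *Stat5a* and *Stat5b* are close copies of each other, and the ends of *Stat3* and *Stat5a* overlap in GENCODE M21, though not at the positions above, which are those of the deposited annotation. Reads could be assigned to the wrong gene where such sequence was counted. Other annotated genes overlap *Stat6*, *Pim1*, *Bcl3* and *Bcl6* on the opposite strand, and the strand used in counting is not stated.

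STAT dimers bind the motif TTCNNNGAA, which reads the same on both strands. It was searched in 14 RefSeq promoters of the 9 genes (GRCm38.p6, 250 bases before to 50 after each start site). It was found in 2 of them, both of *Bcl6*, which encodes a transcriptional repressor with zinc fingers that recognises a sequence close to this motif. Among all 32851 promoters of this length, 8.30% held the motif and 11 held it at least 3 times, as the inner start site of *Bcl6* does. The variant with 1 more base in the gap, which STAT6 is known to bind, was in 1 of the 14 (*Stat2*) and in 6.95% of all promoters. The 250 bases before each *Bcl6* start site are shown because *Bcl6* was the gene that rose with SOCS3, with the motif in capitals, on the minus strand at chr16:23981284-23981533 (inner) and chr16:23988853-23989102 (outer). A match is not evidence of binding.
Bcl6 inner start site: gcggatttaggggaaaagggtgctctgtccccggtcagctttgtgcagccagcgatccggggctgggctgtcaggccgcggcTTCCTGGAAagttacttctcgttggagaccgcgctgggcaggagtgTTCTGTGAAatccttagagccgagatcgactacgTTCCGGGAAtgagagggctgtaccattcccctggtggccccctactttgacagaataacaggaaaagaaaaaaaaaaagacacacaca
Bcl6 outer start site: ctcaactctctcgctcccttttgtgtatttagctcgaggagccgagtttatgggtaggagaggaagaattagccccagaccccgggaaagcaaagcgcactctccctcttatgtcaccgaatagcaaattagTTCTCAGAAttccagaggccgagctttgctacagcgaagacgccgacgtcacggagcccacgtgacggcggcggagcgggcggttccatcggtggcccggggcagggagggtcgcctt
The matches begin 168, 122 and 88 bases before the inner and 118 bases before the outer start site.

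In WT-GFP mice, the mean level of each of the 9 genes was lower in GFP+ astrocytes than in the GFP- fraction, and *Stat3*, *Stat4*, *Stat6* and *Bcl3* passed the test. A call required a fold change of 1.5 or more and an unadjusted *p* no larger than 0.05 (limma on log2(level + 1)). The 4 called genes of 9, all lower, compare with 42.8% of all 26709 genes tested (9.25% higher and 33.5% lower), so this share is near the background. With adjusted p under 0.05, 3 of the 9 remained below GFP- cells (*Stat3*, *Stat4* and *Stat6*), against 31.9% of all genes. The groups did not overlap for *Stat3*, *Stat4*, *Stat5b*, *Stat6* and *Bcl6*, 5 of 9, against 34.8% of all genes. The median log2 fold change was -2.84 over the 9 genes and -1.31 over all genes. Here and in the other comparisons, fewer cells of a type and less RNA per cell cannot be told apart.

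**Figure D2:**
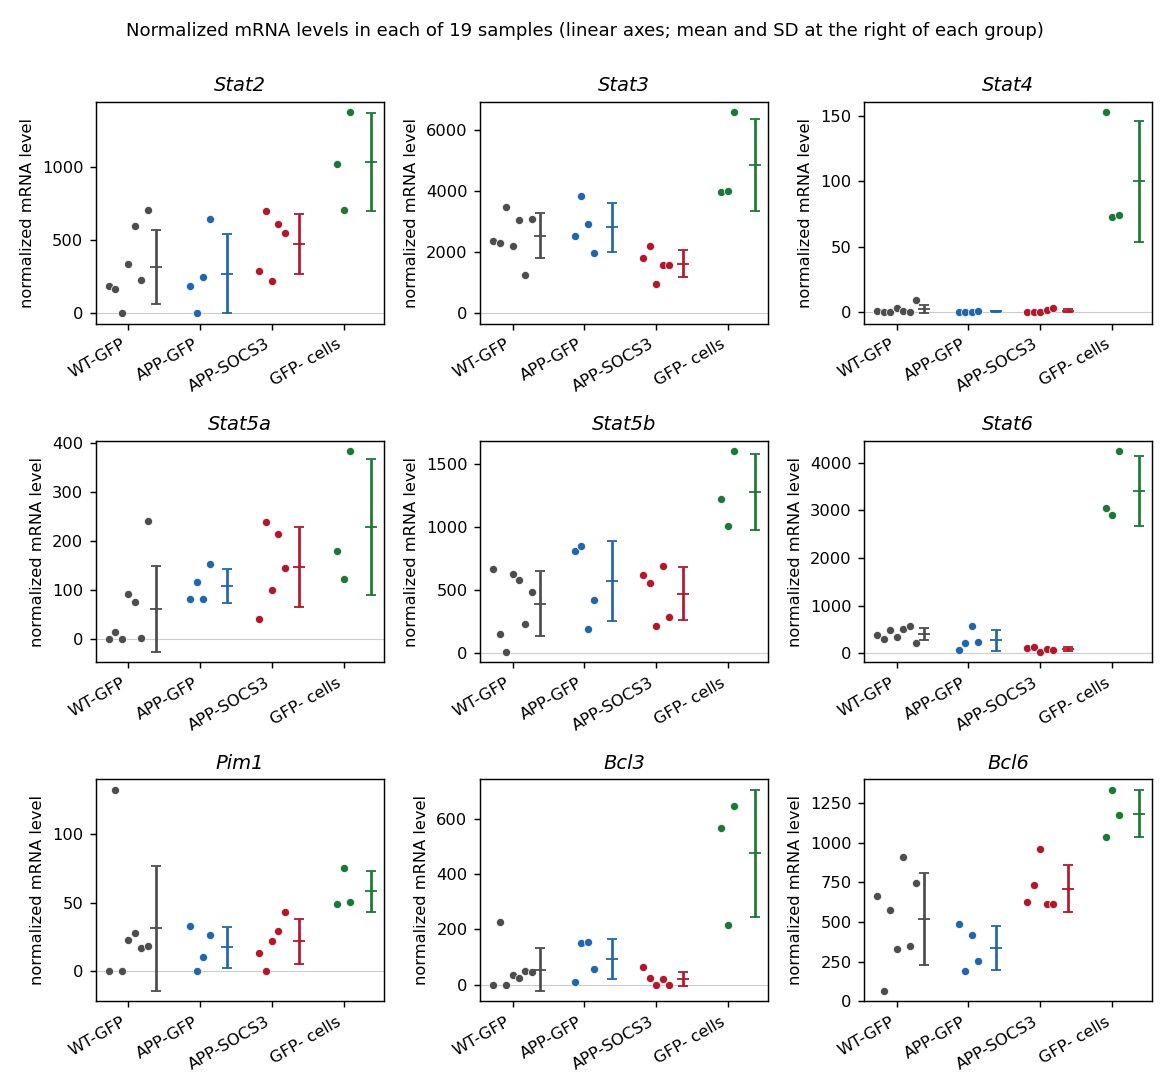
Normalized mRNA levels of the 9 genes (vertical axes, linear, reads divided by the size factor) in each of the 16 samples of GFP+ astrocytes, by group, and in the 3 samples of GFP- cells. Points are samples, and bars at the right of each group are the mean and SD. GFP- cells lie above the astrocytes for *Stat3*, *Stat4*, *Stat5b*, *Stat6* and *Bcl6*, and APP-SOCS3 lies above APP-GFP for *Bcl6*.

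*Stat6* showed the clearest difference among the STAT genes. Its levels were 229 at the lowest, 393 at the median and 578 at the highest of 7 WT-GFP samples, and 3060.0, 2902 and 4255 in GFP- cells. All GFP- samples were thus above all astrocyte samples, a log2 fold change of -3.11 ± 0.31 (SE, adjusted p = 2.8e-05). *Stat3* levels were 1263, 2380.2 and 3484 (lowest, median, highest) in WT-GFP astrocytes and 3982, 3987 and 6594 in GFP- cells. *Stat3* was lower in each astrocyte sample, by less than *Stat6*, at -0.96 ± 0.30 on the log2 scale (SE, adjusted p = 0.0337).

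*Stat4* was nearly absent from astrocytes. It had 0 reads in 3 and at most 3 reads in 6 of 7 WT-GFP samples, with 8 reads in replicate 7, and levels of 154, 72.6 and 74.2 in GFP- cells. Its log2 fold change was -5.57 ± 0.88 (SE, adjusted p = 0.000705), a value that depends on the added 1. *Bcl3*, a partner of NF-kB proteins in the nucleus, had levels of 0, 34.4 and 225 (lowest, median, highest) in WT-GFP astrocytes and 564, 215 and 647 in GFP- cells. Replicate 2 of WT-GFP alone reached the range of GFP- cells, and the log2 fold change was -4.65 ± 1.65 (SE, unadjusted p = 0.0168, adjusted p = 0.0518).

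The other 5 genes did not pass. *Stat5b* ranged from 2.35 to 661 in WT-GFP astrocytes and from 1009.5 to 1606 in GFP- cells, and *Bcl6* from 62.5 to 909 and from 1038 to 1335. For both genes the groups did not overlap (exact 2-sided permutation test, p = 0.0167, the smallest that 7 and 3 samples allow), while the limma test gave unadjusted p of 0.0904 and 0.0515. *Stat2* (0 to 707 against 707 to 1374), *Stat5a* (0 to 241 against 123 to 385) and *Pim1* (0 to 133 against 49.0 to 75.6), a kinase that supports cell survival, overlapped between the groups. Without the 3 WT-GFP samples with few genes detected, 8 of the 9 genes were called lower, and *Stat5a* was not (log2 fold change -2.09, unadjusted p = 0.158). Without replicate 3 of GFP- cells, 2 of the 9 were called, *Stat4* and *Stat6*.

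None of the 8 genes tested was called between APP-GFP and WT-GFP astrocytes. Of all 22969 genes, 2.23% were called (1.66% higher, 0.57% lower), and 0.00435% had an adjusted p under 0.05. The count by unadjusted *p* alone was also 0 in limma, and 0 were called by edgeR and by DESeq2. *Stat4* was not tested, since its mean was under 10 in both groups, with at most 1 read in each APP-GFP sample. No gene had groups that did not overlap, against 0.313% of all genes. The median log2 fold change was -0.03 over the 8 genes and 0.09 over all genes.

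*Stat3* levels were 2536, 3846, 2925 and 1959 in the 4 APP-GFP samples, within or just above the WT-GFP range of 1263 to 3484. Its log2 fold change was 0.17, with a 95% confidence interval of -0.42 to 0.76. *Stat6* levels were 63.4, 223, 585 and 247 in APP-GFP samples, of which 2 lay below the lowest WT-GFP value of 229. Its interval of -1.98 to 0.25 held larger decreases than increases (log2 fold change -0.87, unadjusted p = 0.117).

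*Stat5a* levels were 82.4, 117, 83.1 and 153 in APP-GFP samples and 0, 15.9 and 241 (lowest, median, highest) in WT-GFP samples. The groups overlapped, and the interval of the log2 fold change was -0.43 to 5.95. The intervals were as wide for *Stat2* (-4.37 to 3.31), *Pim1* (-3.57 to 3.10) and *Bcl3* (-1.59 to 5.18), and narrower for *Stat5b* (-1.41 to 3.93) and *Bcl6* (-1.75 to 1.00). These intervals left room for sizeable changes of each gene. For decreases of *Stat3* and *Stat5a* and for increases of *Stat6*, they stopped short of a fold change of 1.5. Without the 4 samples with few genes detected, again 0 of the 8 genes were called.

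**Figure D3:**
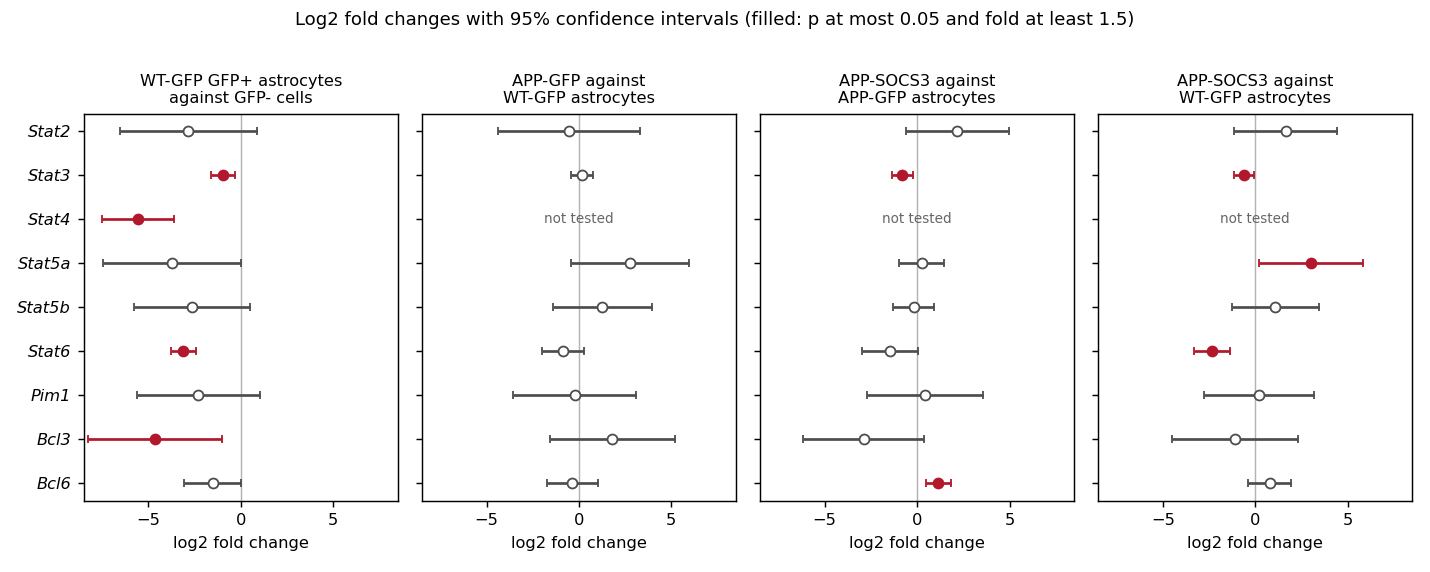
Log2 fold changes of the 9 genes (horizontal axes) in 4 comparisons, with 95% confidence intervals from limma. Filled points passed an unadjusted p of 0.05 and a fold change of 1.5, which 4, 0, 2 and 3 genes did from left to right, and *Stat4* was tested in the first comparison only.

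With SOCS3 in APP mice, *Bcl6* rose and *Stat3* fell in astrocytes. These 2 of 8 genes tested compare with 5.7% of all 22844 genes called (2.33% higher and 3.37% lower), and *Bcl6* was the 1 gene of 8 whose groups did not overlap, against 2.01% of all genes. Neither passed adjustment over all genes, where *Socs3* itself was the only gene among the 22844 with an adjusted p under 0.05 (0.00438%). The median log2 fold change was 0.04 over the 8 genes and 0.08 over all genes.

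*Bcl6* levels were 628, 736, 960.1, 612 and 612 in APP-SOCS3 samples, and 488, 189, 417 and 256 in APP-GFP samples. Each APP-SOCS3 sample was above each APP-GFP sample. Mean levels were 709 ± 149 (SD, n = 5) and 338 ± 139 (SD, n = 4), a log2 fold change of 1.15 ± 0.30 (SE, adjusted p = 0.576 by limma). The exact 2-sided permutation test gave p = 0.0159, the smallest that 5 and 4 samples allow. In a fit of all 19 samples, the unadjusted p was 0.0539. WT-GFP samples ranged from 62.5 to 909, across both groups.

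*Stat3* levels were 1814, 2194, 975, 1575 and 1587 in APP-SOCS3 samples and 2536, 3846, 2925 and 1959 in APP-GFP samples. A single APP-SOCS3 sample, replicate 2, lay above the lowest APP-GFP sample, replicate 4. Mean levels were 1629 ± 443 (SD, n = 5) and 2817 ± 793 (SD, n = 4), a log2 fold change of -0.80 ± 0.25 (SE, unadjusted p = 0.00942, adjusted p = 0.641 by limma), and the exact 2-sided permutation test gave p = 0.0317. Both calls held without replicate 2 of APP-GFP, the sample of these groups with few genes detected.

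*Stat6* was 88.2 ± 41.4 (SD, n = 5) in APP-SOCS3 and 279 ± 219 (SD, n = 4) in APP-GFP astrocytes. Its levels of 109, 132, 22.0, 96.1 and 81.7 with SOCS3 overlapped the APP-GFP samples through replicate 1 of APP-GFP, at 63.4. It was not called (log2 fold change -1.47 ± 0.70, unadjusted p = 0.0579), but was with edgeR and DESeq2 and without that replicate (-2.05, unadjusted p = 0.00935). *Bcl3* levels were 61.8, 25.1, 0, 19.6 and 0 with SOCS3 and 8.15, 151, 153 and 57.5 without, and overlapped (log2 fold change -2.89, 95% confidence interval -6.16 to 0.39).

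The other 4 genes overlapped between these groups. *Stat2* levels were 223 to 699 in APP-SOCS3 and 1.90 to 643 in APP-GFP samples, and *Stat5b* levels were 211 to 686 and 187 to 851. *Stat5a* levels were 40.8 to 240.0 and 82.4 to 153, and *Pim1* levels 0 to 43.1 and 0 to 32.6. The intervals of the log2 fold changes were -0.62 to 4.95 for *Stat2*, -1.29 to 0.93 for *Stat5b*, -0.96 to 1.47 for *Stat5a* and -2.69 to 3.55 for *Pim1*.

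Between APP-SOCS3 and WT-GFP astrocytes, *Stat6* and *Stat3* fell and *Stat5a* rose. These 3 of 8 genes compare with 5.21% of all 22958 genes called (3.19% higher and 2.02% lower). None of the 8 had an adjusted p under 0.05 in limma, against 0.0305% of all genes, and *Stat6* was the 1 gene whose groups did not overlap, against 0.566% of all genes. This comparison shares the APP-SOCS3 samples with that against APP-GFP, and its WT-GFP samples with that of APP-GFP against WT-GFP. The median log2 fold change was 0.49 over the 8 genes and 0.19 over all genes.

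*Stat6* levels of 22.0 to 132 in APP-SOCS3 samples were below the 229 to 578 of WT-GFP samples. Means of 88.2 ± 41.4 (SD, n = 5) and 406 ± 124 (SD, n = 7) gave a log2 fold change of -2.34 ± 0.44 (SE, adjusted p = 0.104 by limma), and the exact 2-sided permutation test gave p = 0.00253, the smallest possible here. The call held without any 1 sample and without the 3 WT-GFP samples with few genes detected (-2.35). *Stat3* fell by 0.63 on the log2 scale (SE 0.26, unadjusted p = 0.0288, adjusted p = 0.819), with overlapping groups. This call was lost without replicate 3 of APP-SOCS3 (-0.45, unadjusted p = 0.0959), without replicate 3, 5 or 7 of WT-GFP and with samples scaled to equal upper quartiles (-0.28, unadjusted p = 0.344).

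*Stat5a* levels were 40.8, 240.0, 101, 216 and 145 in APP-SOCS3 samples. In WT-GFP samples they were 0, 15.9 and 241 (lowest, median, highest), with at most 3 reads in 3 of 7 samples. The groups overlapped, and the log2 fold change of 3.02 ± 1.32 (SE, unadjusted p = 0.0384, adjusted p = 0.872) fell to 1.39 without the 3 WT-GFP samples with few genes detected (unadjusted p = 0.217). It was not called by edgeR or DESeq2, and the call was lost when any of 7 of the 12 samples was left out (unadjusted p = 0.0569 to 0.0814). Without those 3 samples, *Stat6* alone was called among the 8 genes.

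Marker genes of other cells moved with these results. The summed level of 16 microglial markers, in percent of its mean in GFP- cells, was 6.84 to 22.5% in WT-GFP astrocytes, 9.10 to 39.9% with APP and 5.22 to 8.67% with APP and SOCS3. For 18 endothelial markers it was 4.69 to 22.7%, 6.80 to 20.6% and 3.98 to 6.52%, and for 11 mural cell markers 2.34 to 22.5%, 2.86 to 14.3% and 1.63 to 2.76%. Between APP-SOCS3 and APP-GFP astrocytes, 13 of 16 microglial, 16 of 18 endothelial, 6 of 8 perivascular macrophage and 5 of 11 mural cell markers were called lower, as were 5 of 12 neuronal, 3 of 9 oligodendrocyte precursor and 1 of 9 oligodendrocyte markers. None of these lists had a marker called higher, and 0 of 15 astrocyte markers were called. The microglial gene *Cx3cr1* ranged from 186 to 404 in APP-SOCS3 and from 392 to 1763 in APP-GFP samples, and no microglial or endothelial marker was at 0 throughout a group.

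Over the 16 samples of GFP+ astrocytes, log2 levels of *Stat6* went with the microglial (Pearson's r = 0.62), endothelial (r = 0.65) and oligodendrocyte precursor sums (r = 0.68). For *Stat3* the values were 0.57, 0.56 and 0.70. *Bcl6* went the other way, with r = -0.45 for the microglial and -0.73 for the endothelial sum. *Bcl3* had r = 0.70 with the endothelial sum and 0.77 with the sum of 8 perivascular macrophage markers. These values are descriptions over samples that share groups and differ in genes detected. The part of other cells in the results for *Stat3*, *Stat6*, *Bcl3* and *Bcl6*, and in those for the gene lists below, was not tested.

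**Figure D4:**
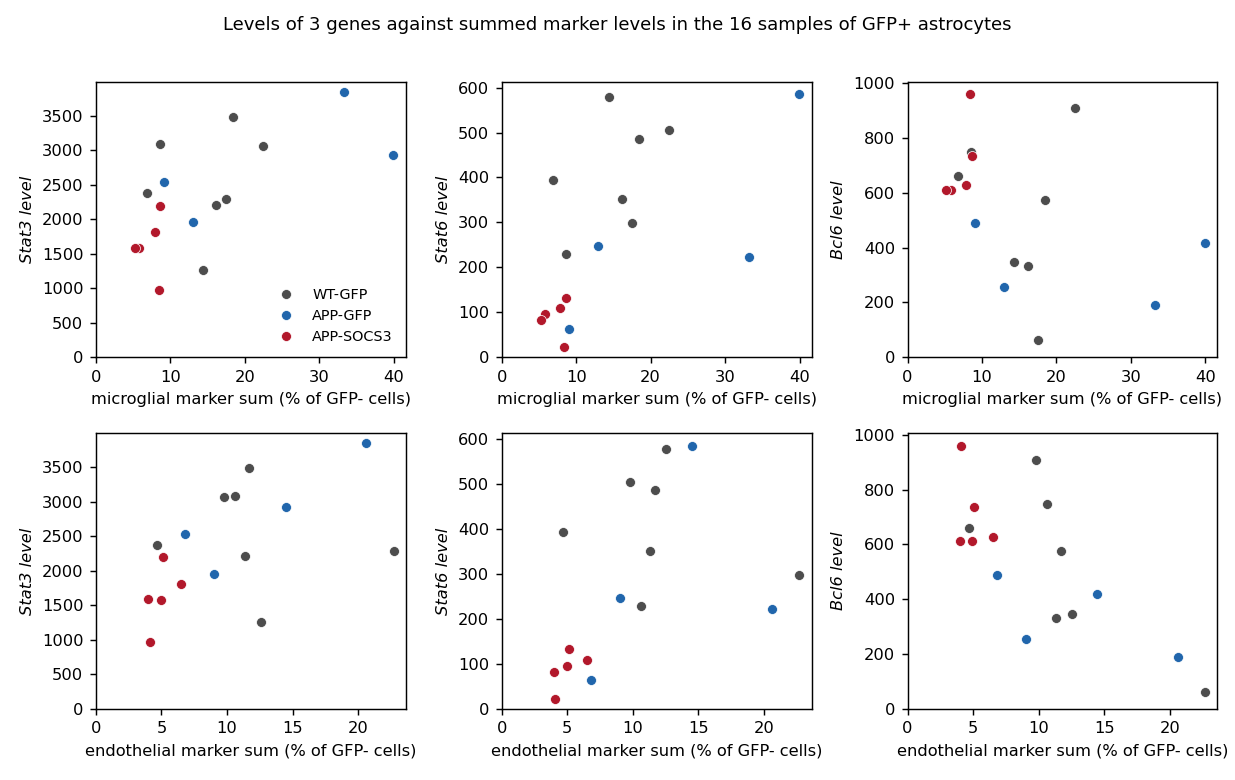
Normalized mRNA levels of *Stat3*, *Stat6* and *Bcl6* (vertical axes) against the summed levels of 16 microglial (top) and 18 endothelial markers (bottom; horizontal axes, % of the mean of GFP- cells) in the 16 samples of GFP+ astrocytes. APP-SOCS3 samples lie at 5.22 to 8.67% of the microglial and 3.98 to 6.52% of the endothelial sum, with *Stat6* at 22.0 to 132. Replicate 1 of WT-GFP lies within both ranges, at 6.84 and 4.69%, with *Stat6* at 393. *Bcl6* is 612 to 960 in APP-SOCS3 samples and 661 in that replicate.

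Other genes of the pathway were read beside the 9. Of 25 cytokine receptors and kinases, 19 were called lower and 2 higher in astrocytes when compared with GFP- cells, where 33.5% of all genes were lower and 9.25% higher (median log2 fold change -2.29, against -1.31 over all genes). *Il11ra1*, the receptor of interleukin-11, was higher at 5067 ± 827 (SD, n = 7) against 1541 ± 298 (SD, n = 3). None of the 23 tested was called between APP-GFP and WT-GFP. Between APP-SOCS3 and APP-GFP, 4 of 24 were called lower and 0 higher, against 3.37% and 2.33% of all genes (median -0.50, against 0.08). Among them were *Il10rb*, a receptor chain of interleukin-10, with a log2 fold change of -1.23 ± 0.36, the interferon receptor chain *Ifnar2* with -0.65 ± 0.18, and *Jak3*, a kinase of blood cells counted together with a neighbouring gene, with -5.12 ± 1.59 (SE). None had an adjusted p under 0.05.

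Of 16 inhibitors of the pathway, 10 were called lower in astrocytes against GFP- cells, where 33.5% of all genes were. The median over the 16 was -1.33 and that of all genes -1.31. *Socs3* was among those called lower (834 ± 269, SD, n = 7, against 14611 ± 3831, SD, n = 3). *Ptpn1*, a phosphatase that acts on Janus kinases, rose in APP-GFP against WT-GFP (1003 ± 496, SD, n = 4, against 435 ± 149, SD, n = 7) and fell with SOCS3 (535 ± 83.9, SD, n = 5), and these comparisons share the APP-GFP samples. Its adjusted p was 0.999 and 0.703. *Ptpn6*, a phosphatase of blood cells and microglia, was the other inhibitor that fell with SOCS3 in APP mice, at 96.6 ± 53.5 (SD, n = 5) against 292 ± 174 (SD, n = 4).

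Of 22 other genes described as STAT3 targets, 9 of 20 tested were called lower with SOCS3 in APP mice and 0 higher, against 3.37% and 2.33% of all genes, with a median log2 fold change of -0.82 against 0.08 over all genes. None had an adjusted p under 0.05 in this comparison. In astrocytes against GFP- cells, 16 of 22 were called lower and 3 higher, against 33.5% and 9.25% of all genes, and 17 had an adjusted p under 0.05. Most of this list was thus higher in GFP- cells, as were the microglial and endothelial markers that fell with SOCS3 in APP mice. The part of other cells in these calls was not tested. With SOCS3 in APP mice, *Junb*, a subunit of AP-1, was 5689 ± 769 (SD, n = 5) against 10904 ± 1765 (SD, n = 4) without it. Its groups did not overlap between APP-SOCS3 and APP-GFP, nor did those of *Cebpb*. *Cebpd* was 705 ± 215 (SD, n = 5) against 1258 ± 262 (SD, n = 4), and it was also the 1 gene of this list called in APP-GFP against WT-GFP, where it was higher (log2 fold change 0.87 ± 0.28, SE, adjusted p = 0.999). Both comparisons use the same APP-GFP samples, so its calls in opposite directions are not independent. *Gfap*, the filament protein of reactive astrocytes, was 7791 ± 2945 (SD, n = 5) with SOCS3, 16902 ± 9127 (SD, n = 4) without it in APP mice and 12064 ± 1946 (SD, n = 7) in WT mice. Its log2 fold change with SOCS3 in APP mice was -1.02 ± 0.36 (SE, unadjusted p = 0.0155 by limma). The groups overlapped, and the exact 2-sided permutation test gave p = 0.0794.

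Among 17 relatives and partners of the 9 genes, *Bcor*, which encodes a corepressor that binds BCL6, rose with SOCS3 in APP mice, at 299 ± 153 (SD, n = 5) against 69.0 ± 49.6 (SD, n = 4). Its log2 fold change was 2.42 ± 0.73 (SE, adjusted p = 0.640). *Nfkbiz*, a relative of *Bcl3*, fell at the same time, with 283 ± 106 (SD, n = 5) against 719 ± 372 (SD, n = 4). *Prdm1*, a repressor that opposes BCL6 in lymphocytes, was higher in APP-GFP (38.6 ± 33.2, SD, n = 4) than in WT-GFP astrocytes (2.69 ± 4.99, SD, n = 7; adjusted p = 0.999).

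Genes with log2 levels most like those of the 9 over the 16 samples of GFP+ astrocytes were sought among the 10662 genes whose mean level reached 100. *Stat3* was closest to *Dctn1* (Pearson's r = 0.89, Spearman's rho = 0.81), *Stat6* to *Pald1* (0.90 and 0.77) and *Bcl6* to *Actr1a* (0.91 and 0.74). *Stat5a* was closest to *Plagl2* (0.94 and 0.74), *Stat5b* to an unnamed transcript, *6030458C11Rik* (0.97 and 0.77), *Pim1* to *Acot2* (0.84 and 0.80) and *Bcl3* to *Stap2* (0.89 and 0.90). These are descriptions over samples that share groups and include those with few genes detected, in which several genes are at 0 together.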

How the data were processed

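RNAseq values of 19 samples of sorted hippocampal cells were used, with groups and replicate numbers from the labels. The authors made cDNA with a kit for low inputs, mapped paired reads to mm10 with STAR 2.4.0, counted reads on constitutive regions of FAST DB genes and normalized them with DESeq2. What they deposited is a signal, the count of each gene divided by 1 size factor per sample, and strand use is not given in the sources used here. Division by the smallest value above 0 of each sample gave whole reads, within a relative tolerance of 1e-06, for 100% of values (19331876 to 32621917 reads per sample). For replicate 3 of APP-GFP and of APP-SOCS3, 1 read is worth about 1 unit, so that this step could not be checked independently. Reads amplified by PCR are not independent molecules, so limits from reads cover counting error only.

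Genes whose mean level reached 10 in 1 of the groups were compared on log2(level + 1) with limma 3.58.1 in R 4.3.3 (mean-variance trend, samples of both groups only, no covariates). Calls used the thresholds of the study, and Benjamini-Hochberg adjustment was over all genes tested. The filter of the study on intergenic background was not used here. Single genes were also compared by exact 2-sided permutation tests of mean log2 levels. The test was checked on simulated reads. Exon lengths were those of GENCODE M21 and promoters those of RefSeq. The 9 genes and all lists were chosen with earlier results of these data known. Named were the 9 genes, at most 3 called genes per list and comparison by smallest *p*, *Socs3*, *Gfap*, the first gene of marker lists (not all are printed) and the genes with the most similar levels (that of *Stat2* is not reported here).

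Alternatives were pseudocounts of 0.1 and 10, no minimum level or 100, scaling to the same upper quartile or the same total, sample quality weights, a fit of all 19 samples, edgeR 4.0.16 and DESeq2 1.42.0 on whole reads, the replicate number as a block, adjusted p, a fold change of at least 2 and leaving out each sample. The labels give no batch.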

Additional observations from a re-analysis of the deposited data

Results flagged for a closer look

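In 27 groups of 4 to 7 samples, 5 single values stood far from the rest by Dixon's ratio. Chance gives this in about 1 of 20 groups of normal values. Several of these levels were near 0 and the genes share samples, so this rate does not apply here. In replicate 7 of WT-GFP, *Stat4* was 9.02 and *Stat5a* was 241, the highest of the 7 samples. In replicate 2 of WT-GFP, *Pim1* was 133 and *Bcl3* was 225. This sample also had the highest sums of endothelial (22.7% of GFP- cells), mural cell (22.5%) and perivascular macrophage markers (32.7%) in WT-GFP astrocytes, and whether these bear on *Pim1* and *Bcl3* was not tested. Leaving it out changed no call of either gene. In replicate 4 of APP-GFP, *Stat4* was 0.872, which is 1 read, where the other 3 samples had 0.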

How the results depend on the processing

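Of the 9 genes, 4 were called lower in GFP+ astrocytes than in GFP- cells, 8 with a pseudocount of 10, 7 with all 19 samples in one fit, 8 in samples with at least 20000 genes detected (a choice made after seeing the data), and 2 to 6 when single samples were left out. Between APP-GFP and WT-GFP, 0 were called, 1 with all 19 samples in one fit (*Stat5a*), 1 with sample quality weights (*Stat6*), and 0 to 1 when single samples were left out (*Stat5a* without replicate 7 of WT-GFP, *Stat6* without replicate 3 of APP-GFP). Between APP-SOCS3 and APP-GFP, 2 were called, 0 at an adjusted p under 0.05, 1 at a fold change of at least 2, and 2 to 4 when single samples were left out (4 without replicate 1 of APP-GFP). Between APP-SOCS3 and WT-GFP, 3 were called, 0 at an adjusted p under 0.05, 1 in samples with at least 20000 genes detected, and 1 to 3 when single samples were left out (1 without replicate 3 of WT-GFP or of APP-SOCS3). Over all genes, the 11419 calls of the first comparison became 6709 with a minimum level of 100. The 513 calls of APP-GFP against WT-GFP became 1 at an adjusted p under 0.05, 817 with no minimum level, 123 with a minimum of 100, 991 with all samples in one fit and 1100 with sample quality weights. The 1301 calls of APP-SOCS3 against APP-GFP became 1 at an adjusted p under 0.05 and 650 with a minimum of 100, and the 1197 against WT-GFP became 7, 441 and, with sample quality weights, 2589. No call of the 9 genes changed sign. In the order of levels per kb, 2 pairs of neighbours had an exact p under 0.05 (*Stat3* with *Stat6*, *Bcl3* with *Pim1*), and 2 also with 1 added after division by length, where *Stat5a* with *Stat4* took the place of *Bcl3* with *Pim1*. Scaling to upper quartiles moved the all-gene median of log2 fold changes from -1.31 to -1.69, 0.09 to 0.26, 0.08 to 0.24 and 0.19 to 0.51, and the share of calls that were higher from 21.6 to 11.3%, 74.5 to 90.9%, 40.9 to 45.7% and 61.2 to 83.3%. The cause of these shifts was not tested.

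Replicate numbers did not pair the samples, since correlations of same-numbered samples were -0.08 to 0.15. With a replicate block, 1 of the 9 genes was called between APP-GFP and WT-GFP (*Stat5a*, log2 fold change 3.74), and *Bcl3* was lost and *Stat5a* gained in GFP+ against GFP- cells.

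Each group had 3 to 7 samples, and *Stat2*, *Stat5a*, *Stat5b*, *Pim1* and *Bcl3* were at or near 0 in single samples, which left wide intervals. *Stat4* was tested against GFP- cells only.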

Other observations

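Among the receptors, *Cntfr*, the receptor of ciliary neurotrophic factor that signals through STAT3, was higher in APP-SOCS3 (2828 ± 1547, SD, n = 5) than in WT-GFP astrocytes (1135 ± 388, SD, n = 7). The log2 fold change was 1.23 ± 0.34 (SE, adjusted p = 0.394 by limma), and the groups overlapped. It was the 1 receptor or kinase of 23 tested that was called higher in this comparison, and *Il10ra* was the 1 called lower (9.85 ± 11.8, SD, n = 5, against 102 ± 127, SD, n = 7).

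Over the 16 samples of GFP+ astrocytes, the largest correlations among the 9 genes were those of *Stat5a* with *Stat5b* (Pearson's r = 0.62), which are close copies, of *Stat2* with *Stat5b* (r = 0.61) and of *Bcl3* with *Bcl6* (r = -0.59). These are descriptions, and samples in which several genes were at 0 together weigh on them.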
